A study of Rattus norvegicus with 36 samples.

Results

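The mature miRNAs that are known as responsive to NF-kB or to inflammatory signals, rno-miR-146a-5p, rno-miR-146b-5p, rno-miR-132-3p and rno-miR-155-5p (4 names), were looked for by exact name among the 947 miRNAs of the count table. Of these 4 names, 3 were found, and rno-miR-155-5p had no row of that name. The libraries came from lung and from heart blood of female WAG/RijCmcr rats, irradiated without anesthesia at 9 to 10 weeks of age with a single dose of 15 Gy X-rays to the whole thorax, a field that held the lungs, the heart and a small part of the liver. Each tissue had 18 libraries in 6 groups of 3, namely 0 Gy rats at 1 week and at 4 weeks and 15 Gy rats at 1, 2, 3 and 4 weeks. The 0 Gy rats were age matched and kept in the same way without irradiation. According to the study's methods each library held equal amounts of RNA from several rats, so that the spread between libraries is that between pools.

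NF-kB is a transcription factor that is switched on by cytokines, by microbial products and by DNA damage. The miR-146a gene is among its known targets. Both miR-146 miRNAs act on mRNAs of the adaptors IRAK1 and TRAF6, which lie upstream of NF-kB, so that miR-146a is part of a negative feedback loop. miR-132 is made from a shared transcript with miR-212 and is known as a target of CREB as well as an inflammatory miRNA. miR-155 is made from the host gene Mir155hg and is known for its induction in activated macrophages and lymphocytes. A library of a whole tissue holds many cell types, so that a lower level cannot be told apart as fewer cells of a type or less RNA per cell.

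The mature sequences are shown because the seed, bases 2 to 8 counted from the 5′ end and given here in capitals, decides which mRNAs a miRNA can pair with, and because it sorts these miRNAs into groups. All 4 names, and miR-212-3p, matched the RefSeq miRNA table (build GRCr8).
rno-miR-146a-5p: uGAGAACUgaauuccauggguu
rno-miR-146b-5p: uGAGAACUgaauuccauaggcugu
rno-miR-132-3p: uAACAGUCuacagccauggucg
rno-miR-212-3p: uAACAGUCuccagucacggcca
rno-miR-155-5p: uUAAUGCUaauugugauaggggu
miR-146a-5p (chr10:28350053-28350074, minus strand) and miR-146b-5p (chr1:255144874-255144897, plus strand) have one seed, which no other of the 693 mature rat miRNAs in that table holds. Over the 22 positions that they share, they differ at 2, G18A and U21C from miR-146a-5p to miR-146b-5p with positions counted from the 5′ end, so that reads of full length tell them apart. miR-132-3p (chr10:60522091-60522112) and miR-212-3p (chr10:60521811-60521832) have a second seed in common, differ at 5 of 22 positions, and start 280 bases apart on the plus strand. The seed of miR-155-5p (chr11:37261117-37261139, plus strand) was found in 1 rat miRNA of the table, itself.

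Total counts ran from 1156407 to 2340177 per library in blood and from 8132 to 3807051 in lung. In lung, 2 libraries held less than 0.1 of the median lung depth, 0 Gy at 1 week replicate 3 with 11621 counts and 15 Gy at 3 weeks replicate 3 with 8132 counts, of which 48.1% were miR-486-5p of red cells. Levels are in CPM, the counts scaled to a library total of 1000000, after TMM scaling, which sets each library to a common scale from the bulk of its miRNAs. One more lung library, of ordinary depth, stood apart by its smooth muscle miRNAs miR-143 and miR-145, which summed to 387320 CPM in 0 Gy at 4 weeks replicate 3 and to at most 118281 in any other lung library. In blood, the columns of 0 Gy at 1 week replicate 1 and 15 Gy at 1 week replicate 2 carry swapped numbers in another listing of the same counts, and blood values are therefore also given with the pair exchanged and with the pair left out. Fold changes, standard errors (SE) and p-values come from edgeR's quasi-likelihood test, fitted on all miRNAs of a tissue with Benjamini-Hochberg adjustment over 499 miRNAs in lung and 289 in blood.

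In lung, both miR-146 miRNAs stood highest at 4 weeks after 15 Gy. miR-146b-5p was the more abundant of the pair, at rank 7 by mean CPM among the 458 known rat miRNAs, with miR-146a-5p at rank 34 and miR-132-3p at rank 233. Mean miR-146a-5p was 2664 ± 698 CPM (SD, n = 3) at 4 weeks after 15 Gy against 949 ± 361 in 0 Gy at 4 weeks and 1224 ± 749 in 0 Gy at 1 week. Mean miR-146b-5p was 27565 ± 6836 CPM against 12048 ± 3774 and 9791 ± 1544 in the same groups. No comparison of a 15 Gy week with either 0 Gy group passed an adjusted p of 0.05 for any of the 3 miRNAs, and 0% of the 499 miRNAs tested in lung passed in any of these 8 comparisons. The count of miRNAs with an unadjusted p under 0.05 in them ran from 19 to 60. DESeq2 called 11 miRNAs at 4 weeks against 0 Gy at 4 weeks and 6 against 0 Gy at 1 week, and it also called 6 between the 0 Gy groups.

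**Figure D1:**
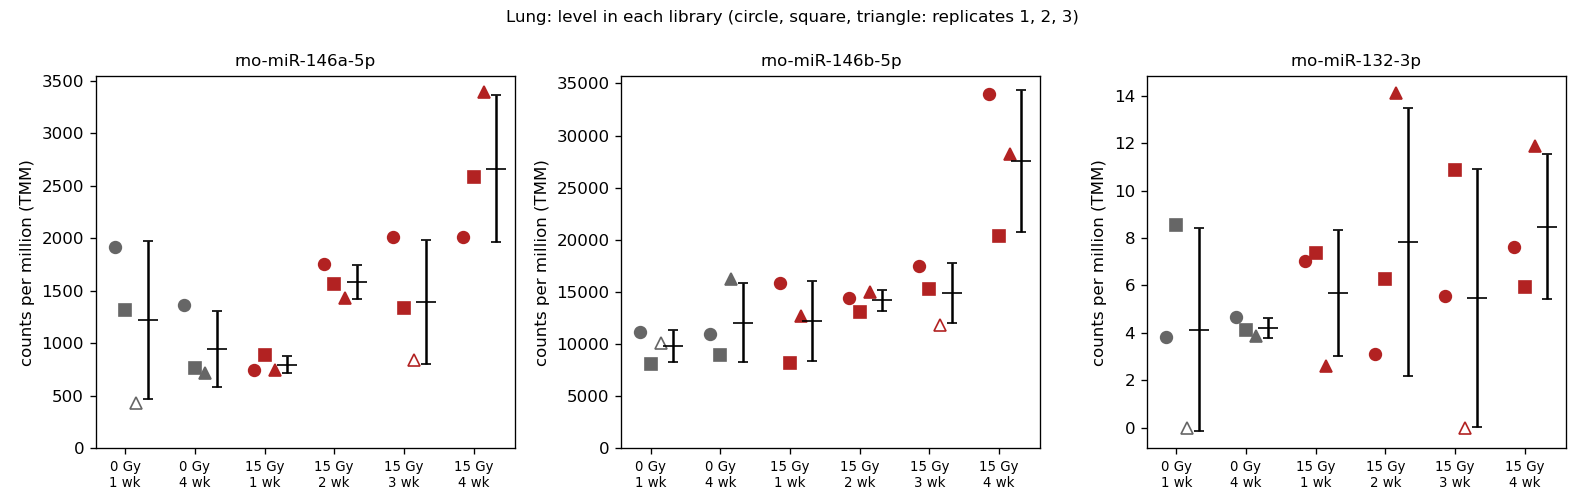
Level of each miRNA in every lung library, in TMM-scaled CPM on linear axes, with 0 Gy libraries in grey and 15 Gy libraries in red, and the mean with its SD in black. Open symbols mark the 2 libraries of low depth. The 3 libraries at 4 weeks after 15 Gy lie above all 6 of 0 Gy for miR-146a-5p and miR-146b-5p, from 2010 to 3399 and from 20400 to 34015 CPM. Of all miRNAs tested, 4.81% lie above 0 Gy at 4 weeks without overlap and 11% above 0 Gy at 1 week.

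For miR-146a-5p, the 4 week libraries after 15 Gy held 2010, 2584 and 3399 CPM. Those of 0 Gy at 4 weeks held 1366, 765 and 717 CPM, and those of 0 Gy at 1 week held 1918, 1323 and 430 CPM. The last of these, of low depth, rests on 8 counts. The 4 week group did not overlap either control, a feature shared by 4.81% of all miRNAs tested against 0 Gy at 4 weeks and by 11% against 0 Gy at 1 week. The log2 fold change was 1.49 (SE 0.468, 95% interval 0.57 to 2.41) against 0 Gy at 4 weeks, 2.8-fold, at rank 6 of 499 by p-value, with an adjusted p of 0.453 in edgeR. Against 0 Gy at 1 week it was 1.1 (SE 0.465), with an adjusted p of 0.654. DESeq2, run as an alternative, gave an adjusted p of 0.0329 for the first of these and 0.976 for the second. Without the 2 libraries of low depth the values were 1.52 and 0.75.

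Earlier weeks lay nearer to the controls. At 1 week after 15 Gy the libraries held 748, 893 and 750 CPM of miR-146a-5p, all under the mean of either control. At 2 weeks they held 1755, 1565 and 1432 CPM, above all of 0 Gy at 4 weeks (a feature of 10.6% of miRNAs) but inside the range of 0 Gy at 1 week. At 3 weeks the values 2014, 1333 and 838 CPM spread across both controls, and the lowest rests on 6 counts. In the order of group means, 1 week after 15 Gy came first, followed by both controls and then by 3, 2 and 4 weeks, and the step up to 4 weeks, 1080 CPM, was the only step larger than the larger SD of its 2 neighbours.

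For miR-146b-5p, the 4 week libraries after 15 Gy held 34015, 20400 and 28280 CPM. Those of 0 Gy at 4 weeks held 10934, 8957 and 16254 CPM, and those of 0 Gy at 1 week held 11151, 8113 and 10110 CPM. Again the 4 week group lay above both controls without overlap, as did 4.81% of all miRNAs tested against 0 Gy at 4 weeks and 11% against 0 Gy at 1 week. The log2 fold change was 1.49 (SE 0.334, 95% interval 0.84 to 2.15) against 0 Gy at 1 week, 2.82-fold, at rank 1 of the 499 miRNAs by p-value, with an adjusted p of 0.249 in edgeR. Against 0 Gy at 4 weeks it was 1.19 (SE 0.332), 2.29-fold, at rank 3, with an adjusted p of 0.453. DESeq2 gave adjusted p-values of 0.00145 and 0.00622 for these, so that the call depends on the tool. Over all miRNAs DESeq2 called 6 and 11 in these comparisons, and 6 between the 0 Gy groups, where no rat was irradiated. The highest control library, 16254 CPM, was the library with the high smooth muscle miRNAs. Without it the difference from 0 Gy at 4 weeks was 1.56, the highest among the fits that leave out 1 library each. The lowest was 1.01, without 15 Gy at 4 weeks replicate 1.

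At 1 week after 15 Gy, miR-146b-5p stood at 15836, 8209 and 12727 CPM, within the spread of the controls. At 2 weeks it stood at 14423, 13099 and 15044 CPM, and at 3 weeks at 17525, 15299 and 11875 CPM. Both of these groups lay above all of 0 Gy at 1 week (features of 14.8% and 3.01% of miRNAs) and overlapped 0 Gy at 4 weeks. Their log2 fold changes against 0 Gy at 1 week were 0.54 (SE 0.328) and 0.61 (SE 0.329), each with an adjusted p of 1 in edgeR. The step from 3 to 4 weeks in the order of means, 12666 CPM, exceeded the larger SD, 6836, and no other step did.

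The 3 libraries at 4 weeks after 15 Gy held 2353538, 883126 and 258078 counts in total, against 3807051, 2013989 and 1682183 in 0 Gy at 4 weeks and 1523909, 964989 and 11621 in 0 Gy at 1 week. At 4 weeks after 15 Gy the shallowest library held the highest miR-146a-5p and the deepest the highest miR-146b-5p. With the log2 of the library total as a covariate, an alternative chosen after seeing the data, the differences from 0 Gy at 4 weeks were 1.80 for miR-146a-5p and 1.25 for miR-146b-5p. The summed leukocyte miRNAs (miR-142-3p, miR-142-5p, miR-150-5p, miR-223-3p and miR-342-3p) ran from 886 to 1730 CPM at 4 weeks after 15 Gy, from 1151 to 1766 in 0 Gy at 4 weeks and from 753 to 2200 in 0 Gy at 1 week. These summed ranges overlap, while the single leukocyte miRNAs varied in sign and size. At 4 weeks after 15 Gy, 4 of the 5 had positive differences from 0 Gy at 4 weeks, with a median of 0.46 beside -0.18 for all miRNAs and a range from -0.36 to 1.34. Of the 5, 1 had an unadjusted p under 0.05 in edgeR, as did 9.62% of all miRNAs tested. The highest was that of miR-142-5p, 1.34 (SE 0.509, adjusted p = 0.453 in edgeR). At 1 week after 15 Gy against 0 Gy at 1 week, miR-142-5p differed by -1.59 (SE 0.534, adjusted p = 0.298 in edgeR) and miR-142-3p by -1.25 (SE 0.57, adjusted p = 0.445). Both come from miR-142, and the other leukocyte miRNAs are not given singly for that week, so these values do not describe the list. The sum of all 5 ran from 894 to 2098 CPM at 1 week after 15 Gy, inside the range of 0 Gy at 1 week. None of the 5 passed after adjustment, and the part of leukocytes in the miR-146 values was not tested.

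**Figure D2:**
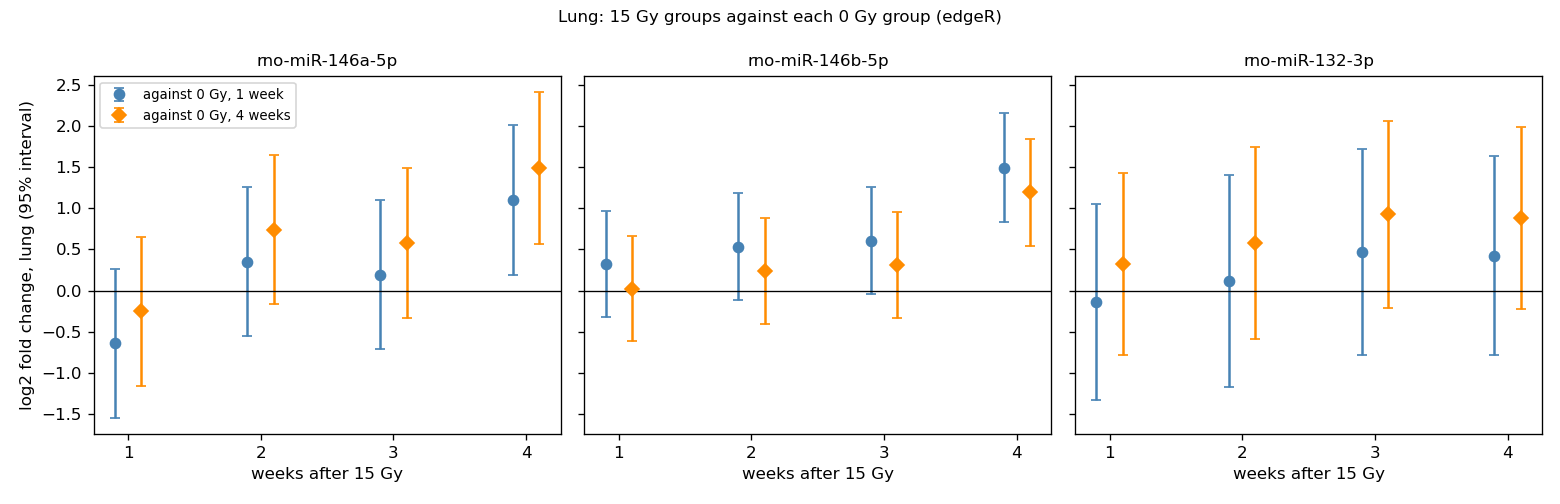
Log2 fold change in lung of each 15 Gy week (horizontal axis, weeks after irradiation) against 0 Gy at 1 week in blue and against 0 Gy at 4 weeks in orange, with 95% intervals from the edgeR fit that are not adjusted for the number of miRNAs. The intervals of miR-146a-5p and miR-146b-5p leave 0 at 4 weeks against both controls, and those of miR-132-3p hold 0 in each week.

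miR-132-3p was scarce in lung, with 127 counts over 18 libraries and at most 19 in one. At 4 weeks after 15 Gy it stood at 7.61, 5.96 and 11.9 CPM, on 16, 5 and 3 counts. The libraries of 0 Gy at 4 weeks held 4.69, 4.10 and 3.86 CPM and lay below all of these, a feature shared by 4.81% of all miRNAs tested. Those of 0 Gy at 1 week held 3.81, 8.56 and 0 CPM and overlapped them, and in the library of low depth 0 counts allow up to 161 CPM (3 counts). The log2 fold change was 0.88 (SE 0.562) against 0 Gy at 4 weeks and 0.43 (SE 0.616) against 0 Gy at 1 week, with edgeR adjusted p-values of 0.575 and 1. No step between neighbours in the order of its group means exceeded the larger SD of the 2. At such counts edgeR takes the larger of 2 p-values, so that SE and p of miR-132-3p need not correspond, and limits from counts cover counting error only, since the reads carry no molecular identifiers.

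The other products of the miR-132 and miR-212 locus were scarcer still, and none passed the filter on low counts. miR-212-3p, with the same seed, had 26 counts in lung. It was at 0 counts in all 3 libraries of 0 Gy at 1 week and at 2, 2 and 0 counts in 0 Gy at 4 weeks. After 15 Gy, 9 of 12 libraries held 1 to 6 counts. miR-212-5p had 14 counts in lung and miR-132-5p had 2. In blood these 3 had 1, 1 and 0 counts over 18 libraries.

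For miR-155 the table holds a row for the mouse homolog, mmu-miR-155-5p, with 67 counts in 13 of 18 lung libraries and 9 counts in 7 of 18 blood libraries. In lung the counts at 4 weeks after 15 Gy were 6, 1 and 3, those of 0 Gy at 4 weeks were 19, 2 and 0, and those of 0 Gy at 1 week were 6, 3 and 0. The ranges overlap, and the row did not pass the filter in either tissue. Whether these reads are all of the rat miRNA's own reads was not tested, so no value is given for rno-miR-155-5p.

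Taking all 12 irradiated lung libraries against all 6 controls, miR-146b-5p differed by 0.59 (SE 0.206) on the log2 scale, with an adjusted p of 0.379 in edgeR. The difference was 0.45 for miR-146a-5p (SE 0.287, adjusted p = 0.642) and 0.45 for miR-132-3p (SE 0.371, adjusted p = 0.748). Here too 0% of the miRNAs tested in lung passed. A two-sided exact permutation test on log2(CPM + 1) gave p = 0.0286 for miR-146b-5p, 0.14 for miR-146a-5p and 0.271 for miR-132-3p, and 0.0847, 0.233 and 0.339 after Benjamini-Hochberg adjustment over the 5 such tests in both tissues.

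The change at 4 weeks, each against its own-week control, was set against the change at 1 week. For miR-146a-5p the change went from -0.64 at 1 week to 1.49 at 4 weeks, and the difference of changes was 2.13 (SE 0.656, 95% interval 0.84 to 3.41), with an adjusted p of 0.256 in edgeR. This call also depends on the processing, since DESeq2 gave an adjusted p of 0.017. In edgeR it was 0.0446 when only the known rat miRNAs that passed the filter on low counts were fitted. Over all miRNAs, 0% of the 499 passed for this difference in edgeR and 13 miRNAs passed in DESeq2. With the known rat miRNAs alone, where fewer miRNAs were tested, 19 passed. The leukocyte miRNA miR-142-5p had a larger difference of changes, 2.94 (SE 0.738, adjusted p = 0.13 in edgeR), and miR-142-3p had 1.71 (SE 0.78, adjusted p = 0.329). Both come from miR-142, and the other leukocyte miRNAs of the list are not given for this difference, so these values do not describe the list. The summed levels of the 5 leukocyte miRNAs after 15 Gy overlapped those of the own-week control at 1 week and at 4 weeks. For miR-146b-5p the difference of changes was 0.87 (SE 0.464, adjusted p = 0.341) and for miR-132-3p 1.02 (SE 0.828, adjusted p = 0.565). The 2 controls, which differ in age by 3 weeks, did not differ beyond their spread, with log2 differences (4 weeks minus 1 week) of -0.38 for miR-146a-5p, 0.30 for miR-146b-5p and -0.46 for miR-132-3p and edgeR adjusted p-values from 0.874 to 0.917. For miR-132-3p the fitted sign goes against the means of the libraries, 4.22 CPM at 4 weeks and 4.12 at 1 week, and the second of these includes the shallow library at 0 counts.

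In blood, miR-146b-5p stood at rank 43 by mean CPM among the 458 known rat miRNAs, miR-146a-5p at rank 131 and miR-132-3p at rank 237. miR-146a-5p had 2 to 14 counts per library, or 0.996 to 7.90 CPM, and miR-146b-5p had 79 to 399 counts, or 56.7 to 244 CPM. miR-132-3p had 10 counts in 9 of 18 libraries and did not pass the filter. miR-486-5p took up most of the counts in every blood library, so that the scale of blood CPM depends on how it is treated.

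**Figure D3:**
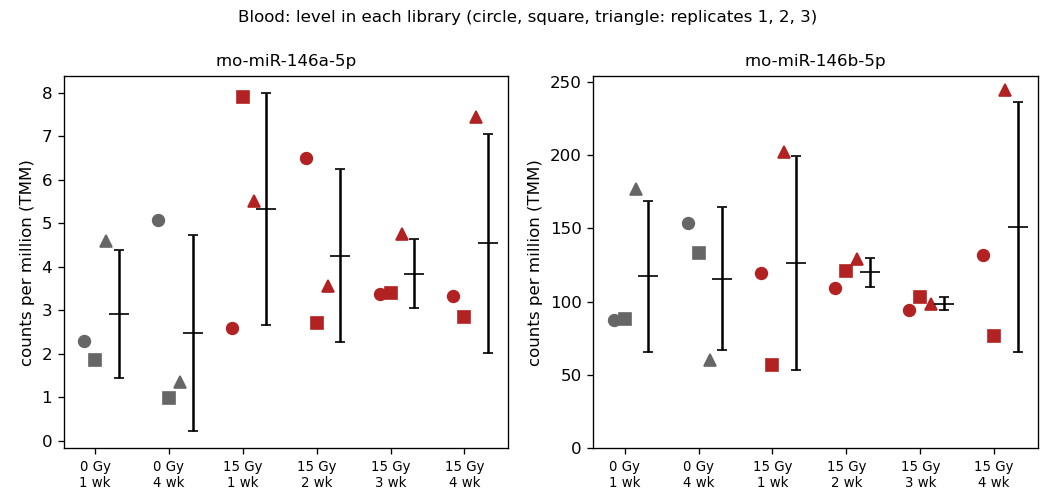
Level of miR-146a-5p and miR-146b-5p in every blood library, in TMM-scaled CPM on linear axes, with 0 Gy libraries in grey and 15 Gy libraries in red, and the mean with its SD in black. All 4 irradiated groups overlap both 0 Gy groups.

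For miR-146a-5p in blood, 0 Gy at 1 week held 2.28, 1.86 and 4.59 CPM and 0 Gy at 4 weeks held 5.08, 0.996 and 1.35 CPM. The 12 irradiated libraries ran from 2.59 to 7.90 CPM, the highest being 15 Gy at 1 week replicate 2, one of the pair with swapped numbers. The largest of the 8 differences, at 1 week after 15 Gy against 0 Gy at 4 weeks, was 1.1 (SE 0.647, adjusted p = 1 in edgeR). Irradiated against control libraries differed by 0.63 on log2(CPM + 1), with an exact permutation p of 0.0339 and 0.0847 after adjustment, while edgeR gave 0.74 (SE 0.408, adjusted p = 0.364). With the 2 blood columns exchanged the edgeR difference was 0.19, and with both left out it was 0.43. The permutation test was run only with the columns as labelled. Without 15 Gy at 1 week replicate 2, the difference of 1.1 from 0 Gy at 4 weeks was 0.57.

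For miR-146b-5p in blood, 0 Gy at 1 week held 87.3, 87.9 and 177 CPM, 0 Gy at 4 weeks held 154, 133 and 60.5 CPM, and 15 Gy at 4 weeks held 132, 76.5 and 244 CPM. The 8 differences ran from -0.25 to 0.38, and the adjusted p-values in edgeR were 0.77 or more. No blood comparison passed for either miRNA. Among the 289 miRNAs tested in blood, 0.346% passed against 0 Gy at 1 week at 1, 2 and 4 weeks after 15 Gy, 0.692% at 3 weeks, 0% against 0 Gy at 4 weeks in any week, 0.346% between the 2 controls, 1.04% over all irradiated against all control libraries and 0.346% for the change at 4 weeks minus that at 1 week.

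Lung and blood were compared in one fit of 36 libraries and 576 miRNAs. The lung change at 4 weeks minus the blood change at 4 weeks was 0.47 for miR-146a-5p (SE 0.777), 0.71 for miR-146b-5p (SE 0.577) and 0.81 for miR-132-3p (SE 1.78), with edgeR adjusted p-values of 1, 0.779 and 1, and 0% of the 576 passed. In unirradiated rats both miR-146 miRNAs were higher in lung than in blood. The log2 difference was 6.29 for miR-146a-5p (SE 0.461, 78.1-fold, adjusted p = 4.88e-12) and 4.17 for miR-146b-5p (SE 0.328, 18-fold, adjusted p = 1.75e-11) in edgeR, in a comparison in which 75% of all miRNAs passed and the median of all was 1.85. These sizes rest on the scaling between 2 very different tissues, and over the fits that leave out 1 library each they ran from 4.45 to 6.37 and from 2.38 to 4.26, while the median of all miRNAs ran from 0.338 to 1.9. miR-132-3p entered this fit only through its lung counts, having 10 counts over the 18 blood libraries, and its difference of 2.20 is therefore given without a test. Defining markers of lung epithelium (miR-200 family, 1452 to 5082 CPM in lung against 1.70 to 8.61 in blood) were present in the tissue of their label. Those of red cells held 378958 CPM or more in blood and 5846 to 547764 in lung. These red cell ranges overlap only through the lung library of low depth at 3 weeks after 15 Gy, with 8132 counts in total, which held the highest lung value. All other lung libraries held at most 91731 CPM of them. The CPM of these markers were scaled within each tissue.

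Within a library, the ratio of miR-146b-5p to miR-146a-5p counts does not depend on scaling. Its median was 9.85 in lung, with a range of 5.81 to 23.5, and 36.5 in blood, with a range of 7.18 to 134. In lung at 4 weeks after 15 Gy the ratios ran from 7.9 to 16.9, inside the range of the controls. The log2 ratio of miR-146a-5p to miR-146b-5p in lung differed by -0.03 between irradiated and control libraries (exact permutation p = 0.913), and 4 weeks after 15 Gy against each control gave an exact p of 0.6, where 3 against 3 libraries cannot go below 0.10.

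Across the 16 lung libraries of ordinary depth, miRNAs were compared by Pearson r of log2 CPM, with the rank correlation (Spearman rho) beside it. Among 241 known rat miRNAs, the one with the highest r to miR-146a-5p was miR-22-3p (r = 0.862, rho = 0.932). It was followed by miR-363-3p (0.862, 0.791) and miR-16-5p (0.85, 0.812). For miR-146b-5p the highest r was that of miR-21-5p (r = 0.818, rho = 0.688), followed by miR-10a-5p (r = 0.632, rho = 0.815). By rho the order of these 2 was the reverse. For miR-132-3p it was miR-191a-5p (r = 0.74, rho = 0.735). The 2 miR-146 miRNAs had r = 0.565 and rho = 0.485 with each other. These values describe libraries that share irradiation groups, depth and scaling, and they were not tested.

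The table also lists new miRNA loci by position in build rn4, and 2 of them follow the counts of miR-146b-5p closely in lung. The loci chr1:251558040-251558146 and chr1:251558049-251558132, which overlap each other, held a median of 1.1 counts per count of miR-146b-5p in lung where they were not at 0. The first was at 0 in 1 lung library and 4 blood libraries and the second in 2 and 16. Over the 16 lung libraries of ordinary depth, the first had a rank correlation of 0.997 with miR-146b-5p, so that it is not a separate observation from it. Another locus, chr10:62480711-62480841, held a median of 1 count per count of miR-132-3p in lung, on the low counts given above. Whether the same reads stand in the table more than once was not tested. Without these 3 rows, an alternative chosen after seeing the data, the difference of miR-146b-5p at 4 weeks was 1.65 against 0 Gy at 1 week and 1.23 against 0 Gy at 4 weeks.

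Of 15 other miRNAs known to be induced by NF-kB or to act on its pathway, 13 were tested in lung and 11 in blood. The list was chosen with earlier results of these data known. None passed at 4 weeks after 15 Gy against either control in either tissue. Of all miRNAs tested, 0% passed in lung against either control. In blood 0.346% passed against 0 Gy at 1 week and 0% against 0 Gy at 4 weeks. In lung at 4 weeks, 10 of 13 had positive differences from 0 Gy at 1 week, with a median of 0.32 beside 0.05 for all miRNAs. From 0 Gy at 4 weeks 8 of 13 were positive, with a median of 0.25 beside -0.18 for all. The share of positive differences over all miRNAs is not given, and the excess in the list was not tested. The largest against 0 Gy at 1 week was that of miR-21-5p, 1.44 (SE 0.448, adjusted p = 0.495 in edgeR), followed by miR-10a-5p, 1.06 (SE 0.339, adjusted p = 0.51). Against 0 Gy at 4 weeks the values of these were 0.71 and 0.13, and the largest was that of miR-125a-5p, 1.06 (SE 0.522, adjusted p = 0.453).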

How the data were processed

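Small RNA libraries of lung and blood were made with the TruSeq Small RNA kit. Per the study's methods, the authors trimmed adapters and poor bases, aligned reads to miRBase and searched the remainder for new miRNAs. The submitters' processing notes name Trim Galore 0.2.5, Bowtie 1.1.1 and build rn4. What they deposited is one matrix of unnormalized read counts, 947 miRNAs by 36 libraries.

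Tests used edgeR 4.0.16 in R 4.3.3 (filterByExpr with a minimum count of 10 and a minimum total of 15, TMM, quasi-likelihood, threshold 0.05) on the 18 libraries of a tissue at once, with 499 miRNAs left in lung, 289 in blood and 576 in both, and DESeq2 1.42.0 as an alternative. SE is the log2 fold change over the root of F, with intervals of 1.96 SE to each side. The p-values measure the spread between pooled libraries. No pair of libraries in a group was alike within sampling noise. Ratios had a pseudocount of 1. The fits were tested on simulated data.

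Named were all members found, the known miRNAs most alike and, from the other list, those with the largest differences at 4 weeks. Members and lists were chosen with earlier results of these data known. The closing section gives the alternatives.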

Additional observations from a re-analysis of the deposited data

Results flagged for a closer look

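miR-212-3p, the neighbour of miR-132-3p with the same seed, did not pass the filter on low counts and so entered no comparison. Its mean over the 12 lung libraries after 15 Gy was 1.85 CPM, with 3 of them at 0 counts, and the highest of the 6 lung control libraries held 0.912 CPM, with 4 of them at 0. A count of 0 allows up to 161 CPM in 0 Gy at 1 week replicate 3 and 3.86 CPM in 0 Gy at 4 weeks replicate 3 (3 counts each), so that at this depth the control libraries cannot be said to lie lower. The mean rests on at most 6 counts in a library, and the difference was not tested.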

How the results depend on the processing

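With DESeq2, 3 lung comparisons of a 15 Gy week with a control passed for these miRNAs where edgeR called 0, and 1 difference of changes (4 weeks minus 1 week) passed, as 1 did with the known rat miRNAs alone. The other settings called 0 in these sets. Over all miRNAs, the 8 lung comparisons gave 0 calls in edgeR, 47 in DESeq2, 7 with known rat miRNAs alone and 1 with the compared groups alone or with depth as a covariate. The 8 in blood gave 5, and 49, 1 and 8 under the first 3 of these, 0 with the pair of blood libraries exchanged and 10 with it left out. All irradiated against all control libraries gave 3 calls in blood, 29 with DESeq2, 1 with known rat miRNAs alone, 9 with the pair exchanged and 14 with it left out, and 0 and 6 (DESeq2) in lung. The control pair gave 0 and 6 (DESeq2) in lung, and 1, 2 (DESeq2) and 0 (known rat miRNAs alone, or the pair exchanged) in blood. Lung against blood gave 432, and 189 with known rat miRNAs alone, where fewer miRNAs were tested, the lung difference of changes gave 0, 13 with DESeq2 and 19 with known rat miRNAs alone, and the 4-week change in lung minus that in blood gave 0, and 12 with DESeq2. Depth limits miR-132-3p in both tissues and miR-146a-5p in blood. All values that turned sign belong to differences that passed under no setting, and the cause was not tested. They are log2 fold changes.

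In lung, miR-132-3p at 2 weeks against 0 Gy at 1 week turned to -0.093 with DESeq2, -0.032 with RLE size factors, -0.014 without miR-486-5p, -0.073 with no filter, -0.083 with known rat miRNAs alone, -0.060 without the libraries of low depth and -0.0073 without the new loci. miR-146b-5p at 1 week against 0 Gy at 4 weeks turned to -0.10 with known rat miRNAs alone, -0.035 with the compared groups alone and -0.0092 without the libraries of low depth, which also turned miR-146a-5p at 2 weeks against 0 Gy at 1 week to -0.16.

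In blood, miR-146b-5p at 1 week against 0 Gy at 1 week turned to -0.094 with DESeq2, -0.10 with RLE and -0.0072 with the compared groups alone. At 2 weeks against that control it turned to -0.016 with DESeq2, -0.025 with RLE, -0.074 with known rat miRNAs alone and -0.30 with the pair of blood libraries left out. Over all irradiated libraries it turned to -0.0050 with DESeq2, -0.0078 with RLE and -0.083 with the pair left out, which gave -0.076 at 4 weeks against 0 Gy at 1 week. At 1 week against 0 Gy at 4 weeks it was -0.056 with no filter and -0.011 with the compared groups alone, and between the controls 0.11 with no filter. With the pair exchanged, miR-146a-5p against 0 Gy at 1 week was -0.51, -0.17, -0.31 and -0.15 at 1 to 4 weeks, miR-146b-5p between the controls 0.11, and the miR-146a-5p difference of changes 1.30, beside 0.61 with the pair left out and 0.015 with RLE.

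Replicate numbers did not pair the libraries, since same-numbered libraries deviated together with correlations from -0.242 to 0.42. With the replicate block no call for these miRNAs was gained or lost, lung against blood gave 428 calls over all miRNAs, and miR-146b-5p in blood turned to -0.057 at 1 week and -0.019 at 2 weeks against 0 Gy at 4 weeks and to 0.13 between the controls.

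Leaving out 1 library at a time gave these ranges where a sign turned. In lung against 0 Gy at 1 week, miR-132-3p ran from -0.72 to 0.29 at 1 week, -0.51 to 0.58 at 2 weeks, -0.16 to 0.99 at 3 weeks and -0.11 to 0.99 at 4 weeks, and miR-146a-5p from -0.20 to 0.62 at 2 weeks and -0.35 to 0.51 at 3 weeks. At 1 week against 0 Gy at 4 weeks, miR-146a-5p ran from -0.38 to 0.15 and miR-146b-5p from -0.23 to 0.39. Between the lung controls, miR-132-3p ran from -1.01 to 0.0054 and miR-146b-5p from -0.082 to 0.48. In blood, miR-146b-5p at 1 to 4 weeks ran from -0.52 to 0.43, -0.24 to 0.46, -0.53 to 0.16 and -0.30 to 0.68 against 0 Gy at 1 week, and from -0.43 to 0.37, -0.25 to 0.31, -0.54 to 0.027 and -0.21 to 0.66 against 0 Gy at 4 weeks. It ran from -0.16 to 0.22 over all irradiated libraries, -0.27 to 0.43 between the controls and -0.18 to 0.77 for the difference of changes. miR-146a-5p in blood ran from -1.17 to 0.23 between the controls and -0.56 to 0.88 for the difference of changes. Lung minus blood at 4 weeks ran from -3.11 to 4.66 for miR-132-3p and -0.51 to 0.96 for miR-146a-5p. The log2 ratio of miR-146a-5p to miR-146b-5p ran from -0.24 to 0.15 over all irradiated lung libraries, and at 4 weeks from -0.79 to 0.16 against 0 Gy at 1 week and from -0.098 to 0.67 against 0 Gy at 4 weeks.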
